A study of Mus musculus with 6 samples.

Results

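Keratins are the intermediate filament proteins of epithelial cells, and the transcripts of 10 keratin genes were followed here in mouse colon with and without experimental colitis. The genes were chosen by name: 6 keratins of simple, single-layered epithelia (Krt7, Krt8, Krt18, Krt19, Krt20 and Krt23) and 4 of squamous, stratified epithelia (Krt5, Krt13, Krt14 and Krt15), out of 16906 protein-coding genes in the deposited table. All 10 had a row. RNA was sequenced from 6 samples of whole colonic tissue of wild-type male C57BL/6J mice aged 6 to 8 weeks and weighing 20 to 22 g. The 3 normal samples came from mice under normal feeding, and the 3 TNBS samples from mice given 5% w/v trinitrobenzenesulfonic acid, a hapten that provokes colitis, into the colon. No group given the vehicle or the procedure alone was analysed here, so their effects and that of TNBS cannot be told apart. Nothing in the labels ties the samples to separate animals, so the p-values reflect only how these samples vary, which may be technical.

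Keratin filaments are built from pairs of an acidic type I and a basic type II chain. Simple epithelia such as the colon lining rely on Krt8 (type II) with Krt18, Krt19 and Krt20 (type I), and Krt20 accumulates as colonocytes mature towards the surface. Squamous epithelia use Krt5 with Krt14 in their basal layer; in the gut they line the anal canal and, in mice, the forestomach and oesophagus. Mice that lack Krt8 develop colonic inflammation, which ties this filament system to the health of the colon.

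The type I genes lie in a cluster on chromosome 11 and the type II genes on chromosome 15 of GRCm38, the build that corresponds to mm10. Krt18 is the exception among the type I genes: it starts 23.7 kb from Krt8 on chromosome 15. Krt7, with the identifier ENSMUSG00000023039, spans 101411043 to 101430313 on the plus strand of that chromosome, and Krt8 (ENSMUSG00000049382) spans 101996698 to 102004482 on the minus strand. Krt20 (ENSMUSG00000035775) spans 99428403 to 99438150 on the minus strand of chromosome 11. The start regions of these 3 genes are shown because Krt7 and Krt20 lay furthest from 0 among the simple keratins, in opposite directions, and Krt8 was the most abundant. Each is 250 bases before to 50 bases after the RefSeq start (GRCm38.p6), 5′ to 3′ on the gene's strand, and capitals mark TATAAA or GGGCGG on either strand.
Krt7, chr15:101412153-101412452, plus strand: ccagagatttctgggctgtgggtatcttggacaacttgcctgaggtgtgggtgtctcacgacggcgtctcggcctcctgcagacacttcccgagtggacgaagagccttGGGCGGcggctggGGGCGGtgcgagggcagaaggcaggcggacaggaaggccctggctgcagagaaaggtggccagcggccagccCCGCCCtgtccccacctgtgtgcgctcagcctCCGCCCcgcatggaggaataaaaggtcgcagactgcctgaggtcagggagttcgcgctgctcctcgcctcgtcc
Krt20, chr11:99438104-99438403, minus strand: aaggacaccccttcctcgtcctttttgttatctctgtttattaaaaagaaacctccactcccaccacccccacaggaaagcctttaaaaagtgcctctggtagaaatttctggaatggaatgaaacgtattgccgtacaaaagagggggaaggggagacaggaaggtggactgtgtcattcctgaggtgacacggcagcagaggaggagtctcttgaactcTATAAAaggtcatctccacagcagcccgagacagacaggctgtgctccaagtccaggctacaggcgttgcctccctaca
Krt8, chr15:102004293-102004592, minus strand: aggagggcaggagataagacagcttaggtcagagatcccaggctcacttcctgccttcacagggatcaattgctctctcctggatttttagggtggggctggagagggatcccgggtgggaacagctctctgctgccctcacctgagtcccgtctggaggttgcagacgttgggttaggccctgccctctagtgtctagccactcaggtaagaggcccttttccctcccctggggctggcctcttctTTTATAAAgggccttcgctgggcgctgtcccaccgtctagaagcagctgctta
The Krt20 window held 1 TATAAA, starting at -29, and no GGGCGG. The Krt7 window held 4 GGGCGG, the first starting at -141, and no TATAAA. The Krt8 window held TATAAA in 2 overlapping matches on opposite strands, the first starting at -3, and no GGGCGG. Of 32851 RefSeq promoter windows of the same length, 13.6% held TATAAA and 35.7% held GGGCGG. A further 3 motifs were searched on both strands. TGANTCA, the AP-1 motif, was in none of the 3 windows. TTTATG, a motif like that of the CDX factors, was in none of them either. CACCC, bound by Krüppel-like factors, was in each of them, and 57.5% of all windows held it. A match is a description of the letters, and no binding was measured.

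Libraries held 15185569 to 23380492 counts. Levels are given in CPM, a gene's counts relative to the library total after TMM scaling, which corrects for the make-up of each library. A count of 3 corresponds to 0.131 to 0.194 CPM, and the intervals given for counts include counting error alone. Libraries differed from each other within the groups, and some factors of gut position also differed between the groups. The summed Y-linked transcripts of Ddx3y, Eif2s3y, Uty and Kdm5d were at 2.82 CPM in TNBS replicate 1 and 154 CPM in TNBS replicate 3, against 372 to 461 CPM in the normal libraries and 416 CPM in TNBS replicate 2, although the labels describe male mice. None of these 4 genes was called by edgeR, DESeq2 or limma-voom or had an unadjusted p under 0.05 (furthest from 0 was Uty, edgeR log2 fold change -1.76, adjusted p = 0.334). Hoxb13, a transcription factor of the most distal gut, measured 106, 57.7 and 7.37 CPM in normal replicates 1 to 3, 21.4 CPM in TNBS replicate 1, and 0.194 and 0.308 CPM in TNBS replicates 2 and 3. Of 9 tested factors of position along the gut, Hoxb7 was called higher (edgeR adjusted p = 0.0338), but not without any 1 library other than TNBS replicate 1 (0.0741 to 0.152). Over all genes tested edgeR called 0.906% higher. By DESeq2 4 of the 9 were higher and 1 lower, against 5.01% and 5.11% of the genes to which it gave an adjusted p. None was called by limma-voom (Hoxb7 adjusted p = 0.182), against 0.566% higher and 1.03% lower of all genes. An unadjusted p under 0.05 with edgeR went to 4 of the 9 higher and 1 lower, against 21.0% of all genes in either direction. For 3 of the 9 all TNBS values lay above all normal ones and for 1 below, against 15.3% and 14.8% of all genes. Normal replicate 3 had 412 genes at 0 counts that every other library detected and TNBS replicate 2 had 366, against 20 to 47 in the other libraries.

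Of the 10 keratins, 8 passed the filter on low counts and were tested; Krt5 and Krt13 did not pass it. Krt7 rose in TNBS colon, and none of the keratins fell by edgeR's test. Over all 14126 genes tested, 0.906% were called higher and 1.14% lower, together 2.05%, which is the background for 1 of 8 keratins higher and 0 of 8 lower. These shares come from 128 genes higher and 161 lower; with scaling to library size alone the split was 196 and 102. DESeq2 called 1 of the keratins higher and 1 lower, against 5.01% and 5.11% of the genes to which it gave an adjusted p, and limma-voom 1 and 0, against 0.566% and 1.03% of all genes. Krt14 and Krt15 were given no adjusted p by DESeq2. At an unadjusted p under 0.05 stood 2 of 8, Krt7 and Krt20, against 21.0% of all genes. The normal and TNBS values did not overlap for 3 of 8, Krt7, Krt15 and Krt20, against 30.1% of all genes. Among the simple keratins the median log2 fold change was 0.0015, and 0.0073 over all genes tested.

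**Figure D1:**
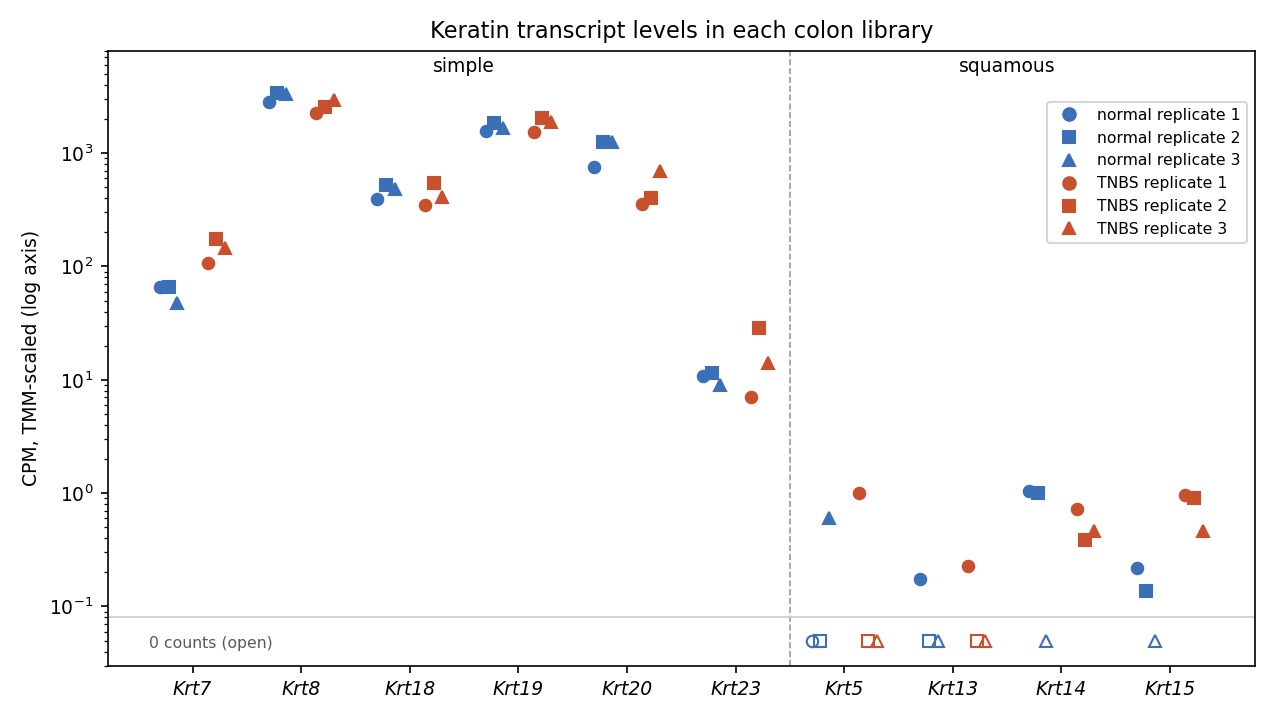
Level of each keratin in each library, in TMM-scaled CPM on a log axis, with normal libraries in blue and TNBS libraries in red and a symbol for each replicate; open symbols below the line are libraries with 0 counts. The simple keratins had at least 155 counts in every library and the squamous ones at most 24.

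Krt7, a type II keratin of ducts and other simple epithelia, was the keratin that rose. The normal libraries held 66.0, 66.0 and 47.3 CPM, and the TNBS libraries 107, 175 and 145 CPM. All 3 TNBS libraries lay above all 3 normal ones. Group means were 59.8 ± 10.8 CPM in normal and 142 ± 33.9 CPM in TNBS replicates (SD, n = 3). The log2 fold change was 1.25 (SE 0.23, edgeR quasi-likelihood adjusted p = 0.0360). On the fold scale this is 2.38, with a 95% interval of 1.66 to 3.41. DESeq2 (adjusted p = 9.50e-05) and limma-voom (adjusted p = 0.0351) called it too. The call needs most of the libraries: the adjusted p was 0.0902 without normal replicate 1, 0.148 and 0.105 without normal replicates 2 and 3, and 0.0978 and 0.102 without TNBS replicates 2 and 3, with log2 fold changes of 1.08 to 1.34. Without TNBS replicate 1, the library nearly free of Y-linked transcripts, the log2 fold change was 1.42 (adjusted p = 0.00836). With TNBS replicate 1 alone for its group, the log2 fold change was 0.84. The Hoxb13 level of that library lies within the normal range, and its Hoxb7 level lies above it (4.54 CPM, against 0.680 to 1.82 CPM). The start of the Krt7 locus overlaps the antisense gene Gm671, and that of Krt8 the non-coding gene Gm36026 on the other strand, so reads there cannot be told apart if counting took no account of strand.

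Krt20, the type I keratin of mature surface colonocytes, had lower values in TNBS colon but did not pass edgeR's test. The normal libraries held 753, 1248 and 1258 CPM and the TNBS libraries 353, 400 and 691 CPM. The highest TNBS library, replicate 3, lay just under the lowest normal one, replicate 1. Group means were 1086 ± 289 and 481 ± 183 CPM (SD, n = 3), and the log2 fold change was -1.17 (SE 0.32, edgeR adjusted p = 0.0964). The 95% interval of the fold ran from 0.270 to 0.728. DESeq2 called Krt20 lower (adjusted p = 0.00344) and limma-voom did not (adjusted p = 0.0790). In the other fits run the log2 fold change lay between -1.62 and -0.99, negative each time.

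Krt8, Krt18 and Krt19, the abundant keratins of the colon lining, did not pass the test in either direction. Krt8 measured 2848, 3381 and 3321 CPM in normal replicates and 2278, 2555 and 2920 CPM in TNBS replicates. TNBS replicate 3 lay above normal replicate 1, so the groups overlapped, and the log2 fold change was -0.30 (SE 0.22, edgeR adjusted p = 0.446). Its 95% interval ran from a fold of 0.579 to 1.14. Krt18, the usual partner of Krt8, measured 392, 526 and 477 CPM in normal replicates and 347, 542 and 414 CPM in TNBS replicates. Both the lowest and the highest Krt18 value belonged to TNBS libraries. Its fold change interval was 0.656 to 1.33 (edgeR adjusted p = 0.826), and its sign turned with scaling to library size alone (log2 fold change 0.041, against -0.099).

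Krt19, a type I keratin that lacks the usual tail domain, measured 1572, 1843 and 1676 CPM in normal replicates and 1534, 2051 and 1880 CPM in TNBS replicates. As for Krt18, TNBS replicate 1 was the lowest and TNBS replicate 2 the highest of all 6. The interval of its fold was 0.772 to 1.49 (edgeR adjusted p = 0.807). These intervals allow changes up to the bounds given, so equal levels in both groups are not shown. The Krt8 transcript is in part not unique to the gene: 26.9% of its 50-base stretches also occur in other transcripts, mainly the processed pseudogene Krt8-ps, so its counts are uncertain where reads could be assigned to either. Krt19, Krt20 and Krt23 shared 0 such stretches.

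Krt23, a divergent type I keratin, was the least abundant simple member. Its level was 10.8, 11.6 and 8.98 CPM in normal replicates and 7.04, 28.9 and 14.1 CPM in TNBS replicates. TNBS replicate 1 was below and TNBS replicates 2 and 3 were above all normal libraries. The log2 fold change was 0.67 (SE 0.46, edgeR adjusted p = 0.421), and 0.016 without TNBS replicate 2.

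**Figure D2:**
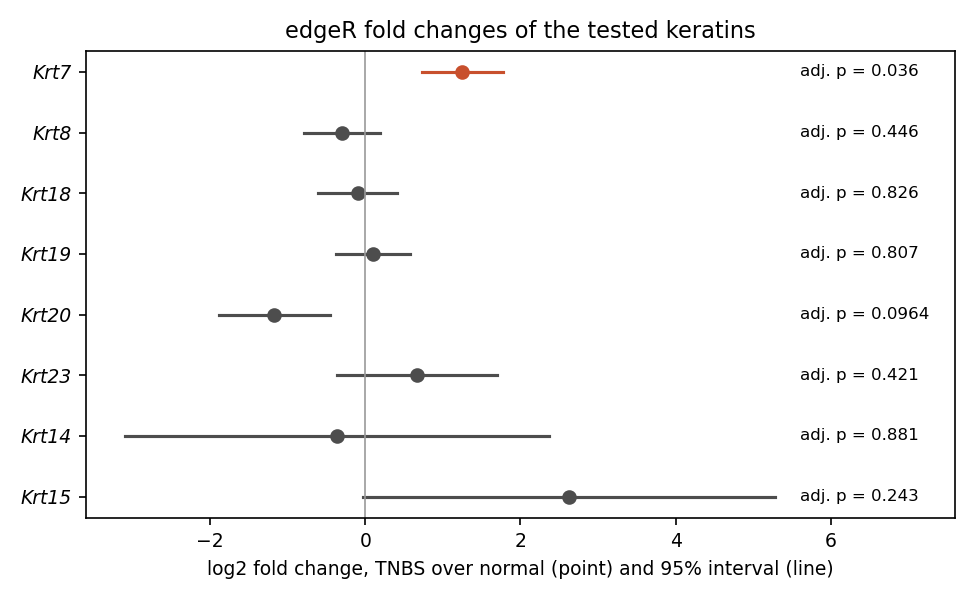
Log2 fold change of TNBS over normal colon for the 8 tested keratins, as a point with its 95% interval and edgeR adjusted p; the called gene is red. Krt7 is at 1.25 and Krt20 at -1.17, and the intervals of the low-count Krt14 and Krt15 are the widest of the 8.

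Within the simple keratin pool, the shares of Krt20, Krt19 and Krt7 did not overlap between the groups. To compare genes with each other, CPM were divided by the length of the principal transcript in kb. Summed over the 6 genes, the level per kb was 3138, 3933 and 3762 in the normal and 2592, 3252 and 3375 in the TNBS libraries, so the groups overlapped. Krt20 made up 12.4%, 16.5% and 17.4% of that level in the normal libraries and 7.06%, 6.38% and 10.6% in the TNBS libraries. Krt19 made up 31.8%, 29.7% and 28.3% in the normal and 37.6%, 40.0% and 35.3% in the TNBS libraries. Krt20 thus took a smaller share in every TNBS library and Krt19 a larger one, and the larger share of Krt19 stands beside a level of its own that did not pass the test. Krt8 held 43.9% to 46.4% of the normal and 40.1% to 44.9% of the TNBS level, and Krt18 8.69% to 9.31% and 8.53% to 11.6%. Krt7 was a small part, 0.307% to 0.513% in the normal and 1.01% to 1.31% in the TNBS libraries. With a shorter Krt7 transcript that ends where RefSeq ends the gene, these became 0.789% to 1.31% and 2.56% to 3.32%, and the Krt20 shares 12.3% to 17.3% and 6.25% to 10.5%. These shares depend on each other and are given as a description, with no test.

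**Figure D3:**
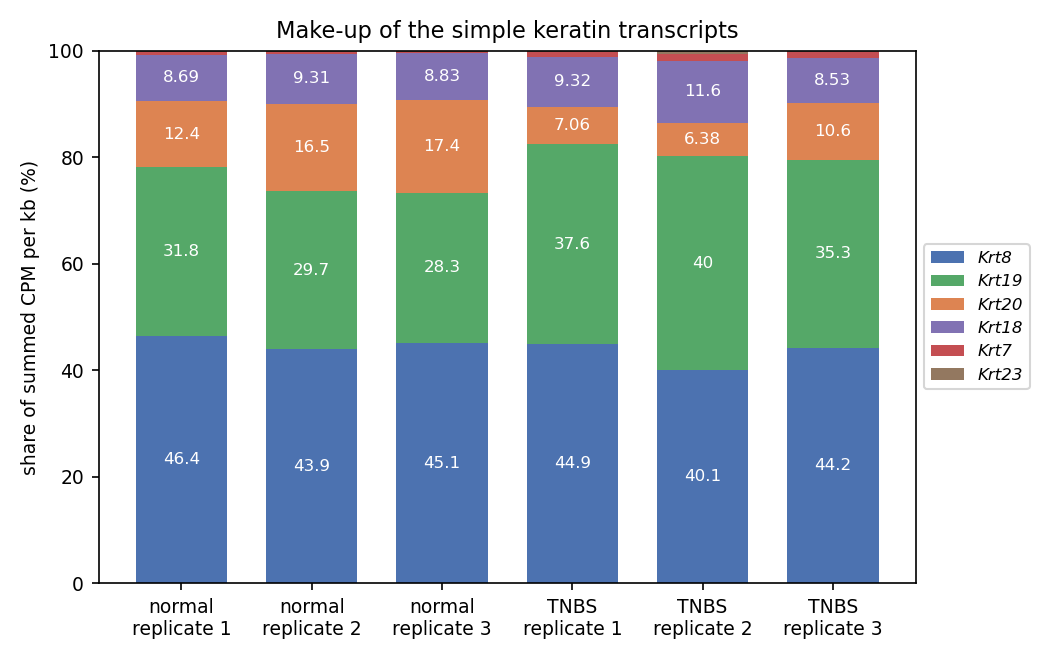
Share of each simple keratin in the summed level per kb of the 6 genes, in percent, 1 bar for each library. The Krt20 part is 12.4% to 17.4% in the normal and 6.38% to 10.6% in the TNBS libraries, and the Krt19 part is 28.3% to 31.8% and 35.3% to 40.0%.

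Ratios of counts within a library do not depend on how libraries are scaled. There were 11.4, 18.9 and 26.6 Krt20 counts for each Krt7 count in the normal libraries and 3.29, 2.29 and 4.76 in the TNBS libraries. All 3 TNBS ratios lay below all normal ones, and the normal ratios themselves varied. Among the normal libraries the ratio was lowest where Hoxb13 was highest, at 106 CPM in replicate 1, and highest where Hoxb13 was lowest, at 7.37 CPM in replicate 3. TNBS replicates 2 and 3, whose Hoxb13 was lower still, had ratios under all of these, and TNBS replicate 1, with Hoxb13 inside the normal range, did too. The position factors do not all place TNBS replicate 1 alike. Its Hoxb6 level lay inside the normal range (8.95 CPM, against 3.36 to 11.5 CPM). Its Hoxb7 level lay above that range (4.54 CPM, against 0.680 to 1.82 CPM). For each 100 Krt8 counts there were 1.43 to 2.32 Krt7 counts in the normal and 4.70 to 6.84 in the TNBS libraries. The part of gut position and of the differing Y-linked levels in the Krt7 and Krt20 results was not tested.

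In normal colon the order of the mean levels per kb was Krt8 (1626 ± 149), Krt19 (1077 ± 86.9), Krt20 (564 ± 150), Krt18 (324 ± 47.3), Krt7 (14.6 ± 2.63) and Krt23 (6.67 ± 0.843; CPM per kb, SD, n = 3). No library overlapped between neighbours in that order down to Krt23. In TNBS colon it was Krt8 (1320 ± 164), Krt19 (1156 ± 167), Krt18 (302 ± 68.9), Krt20 (250 ± 95.2), Krt7 (34.8 ± 8.29) and Krt23 (10.7 ± 7.13). There the values of Krt8 and Krt19 overlapped across libraries, as did those of Krt18 and Krt20. Within each TNBS library Krt8 lay above Krt19, though only just in replicate 2 (1305 against 1301). Krt18 lay above Krt20 in TNBS replicates 1 (242 against 183) and 2 (377 against 207). In TNBS replicate 3 it lay below (288 against 359), so the change of place of Krt18 and Krt20 was not seen in every TNBS library. The length of Krt7 is uncertain: RefSeq ends the gene earlier, and with that end its transcript has 1587 instead of 4094 bases and its level is 37.7 ± 6.78 in normal and 89.7 ± 21.4 CPM per kb in TNBS colon, with the same place in the order. The type II members summed to 0.795 to 0.882 times the level of the type I members in the normal libraries and to 0.707 to 0.848 times in the TNBS libraries.

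In whole tissue, fewer cells of a type and less RNA per cell cannot be told apart, so the keratins were set beside other epithelial transcripts. A list of 18 epithelial genes without keratins, of which 17 were in the table, summed to 6525 to 6735 CPM over the normal libraries and to 4784 to 5743 CPM over the TNBS ones. None of its 16 tested genes passed edgeR's or limma-voom's test, and DESeq2 put 2 lower, against 5.11% of genes. Unadjusted p values under 0.05 went to 4 of 16, all lower, against 21.0% of all genes. Over all 16 the median log2 fold change was -0.036. The member furthest from 0 was Cdhr5, a protocadherin of the brush border, with means of 482 ± 75.1 and 265 ± 72.4 CPM (SD, n = 3; edgeR adjusted p = 0.102). The sum gives most weight to abundant genes. Among these, Epcam had means of 1682 and 1182 CPM and Cdh1 of 1422 and 1030 CPM in normal and TNBS colon. Of the 16 genes, 6 had a log2 fold change above 0. Ratios to the sum thus depend in part on a few genes. For each 100 CPM of this list the libraries held 0.721 to 1.01 CPM of Krt7 in normal and 1.87 to 3.65 CPM in TNBS colon. The same measure for Krt20 was 11.5, 18.5 and 19.2 in the normal and 6.14, 8.36 and 13.2 in the TNBS libraries, where TNBS replicate 3 lay above normal replicate 1. For all 6 simple keratins together it was 86.5, 105 and 103 in the normal and 80.6, 120 and 116 in the TNBS libraries, which overlapped.

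Squamous keratins were close to the detection limit in every library. The 4 genes together had 33, 25 and 12 counts in the normal and 64, 20 and 18 in the TNBS libraries, beside 129313, 156098 and 134499 counts of the simple keratins in normal and 101823, 88953 and 118176 in TNBS colon. By level per kb the squamous share of the 10 genes was 0.0171% ± 0.00988 in normal and 0.0335% ± 0.0241 in TNBS colon (SD, n = 3). As a share of counts the lowest library was normal replicate 3, at 0.00892% (exact 95% interval 0.00461% to 0.0156%), and the highest TNBS replicate 1, at 0.0628% (0.0484% to 0.0802%). Without TNBS replicate 1 the TNBS mean of the share per kb was 0.0197%.

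Krt5, the type II keratin of basal squamous cells, was detected in 1 library of each group, with 12 counts in normal replicate 3 and 22 in TNBS replicate 1. Its partner Krt14 had 24, 22 and 0 counts in the normal and 16, 6 and 9 in the TNBS libraries, and no library with Krt5 counts in the normal group had Krt14 counts. The log2 fold change of Krt14 was -0.37 (SE 1.21, edgeR adjusted p = 0.881), with a fold interval of 0.116 to 5.15, and its sign turned in 5 of the 14 alternatives run. Krt13, a keratin of the upper layers of moist squamous epithelia, had 4 counts in normal replicate 1 and 5 in TNBS replicate 1 and was at 0 in the other libraries. For a library at 0 counts the limit is the 3-count level given above.

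Krt15, another basal squamous keratin, was the 1 squamous member whose groups did not overlap. It had 5, 3 and 0 counts in the normal and 21, 14 and 9 in the TNBS libraries, at most 0.218 CPM in normal and at least 0.462 CPM in TNBS colon. The 0 of Krt15, like that of Krt14, was in normal replicate 3, where 412 genes that every other library detected were at 0 counts. For Krt15 the log2 fold change without that library was 2.09 (edgeR adjusted p = 0.317). With all libraries it was 2.62 (SE 1.17, edgeR adjusted p = 0.243), with a fold interval of 0.979 to 38.8, so the difference did not pass the test. Krt14 shares 13.9% of its 50-base stretches with other genes, mainly Krt16, and Krt5 8.52%, mainly with Krt6a; for Krt15 the figure is 0.640%.

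Among other genes of squamous epithelium, some were scarce and some plentiful. Trp63, the transcription factor of basal squamous cells, was at 0 counts in 5 libraries and at 9 in TNBS replicate 1, the library that also had the highest counts of Krt5 and Krt15. Col17a1, a collagen of basal attachment, had 0 to 14 counts. Of 28 squamous differentiation genes, 15 were in the table and 13 were tested; edgeR called 2 lower and 0 higher, against 1.14% and 0.906% of all genes. Unadjusted p values under 0.05 went to 2 genes in each direction, against 21.0% of all genes. Higher calls numbered 1 with DESeq2 (5.01% of genes) and 0 with limma-voom (0.566%). The log2 fold change was above 0 for 3 of the 13. Of these, Tgm1 had 7, 4 and 11 counts in the normal and 48, 32 and 28 in the TNBS libraries. Sbsn had 113, 62 and 71 against 111, 197 and 172. Both were named after their values were seen, and edgeR called neither. The 2 that edgeR called lower, Sprr2a1 and Sprr2a3, encode small proline-rich proteins that are also made by intestinal epithelium. The mean of Sprr2a3 was 228 ± 68.7 CPM in normal against 63.6 ± 4.83 CPM in TNBS replicates (SD, n = 3), a log2 difference of -1.84 (edgeR adjusted p = 0.0131). For Sprr2a1 the means were 283 ± 62.1 and 74.6 ± 29.5 CPM, a log2 difference of -1.92 (adjusted p = 0.030). Their near-identical family members could share reads, so each count is uncertain. Both calls were lost without normal replicate 2 (adjusted p = 0.0721 for Sprr2a3 and 0.133 for Sprr2a1) and without normal replicate 3 (0.0543 and 0.105), and that of Sprr2a1 also when TNBS replicate 2 (0.0526) or 3 (0.0709) was left out. Without these 2 genes the list summed to 590 to 704 CPM over normal and 544 to 617 CPM over TNBS libraries. It includes Perp, a desmosome-linked gene that simple epithelia also express, with 3943 to 7196 counts, the integrin gene Itgb4 with 1202 to 3241, Serpinb5 with 1171 to 2856, Sfn with 1173 to 2228 and the plakophilin gene Pkp1 with 149 to 1228.

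The other 22 keratins of the table were low as well, at most 91 counts in a library. Of the 7 that passed the filter none was called by edgeR, DESeq2 or limma-voom. An unadjusted p under 0.05 went to 1, which was lower, against 21.0% of all genes in either direction. The 3 with the highest mean were Krt83, a hair keratin, Krt222, a keratin-like gene, and Krt10, a keratin of upper epidermis. Krt83 was at 2.92, 1.45 and 0 CPM in the normal and 2.32, 5.43 and 3.49 CPM in the TNBS libraries (edgeR adjusted p = 0.504). Krt222 and Krt10 had adjusted p of 0.862 and 0.719, with groups that overlapped. The gene lower at the unadjusted p was Krt17, a keratin of skin appendages that is induced in stressed skin, named after its values were seen. It had 76, 75 and 44 counts in the normal and 23, 0 and 9 in the TNBS libraries (log2 fold change -2.52, SE 1.01, edgeR adjusted p = 0.204). All 3 TNBS libraries lay below all normal ones.

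Keratins attach to desmosomes through plakins. A list of genes of these structures also held other keratin-linked genes, Trim29, Fam83h and Tchp, and 15 of its genes were tested. None passed with edgeR or limma-voom and 1 was higher with DESeq2, against 5.01% of genes. An unadjusted p under 0.05 was reached by 2 genes in each direction, against 21.0% of all genes. The median log2 fold change was 0.19. Trim29, a gene expressed in squamous and other epithelia, was furthest from 0, at 0.349, 0.0453 and 0 CPM in the normal and 0.818, 2.46 and 1.39 CPM in the TNBS libraries (edgeR log2 fold change 3.47, adjusted p = 0.162). Its log2 fold change was 5.70 without normal replicate 1 and 2.93 to 3.77 without each of the others. Of 20 transcription factors known from epithelial gene control none was called by edgeR, and 3 in each direction had an unadjusted p under 0.05, against 21.0% of all genes. There was 1 higher and 2 lower by DESeq2 (5.01% and 5.11% of genes), and 1 lower by limma-voom (1.03% of genes). Foxa2, a regulator of endoderm, was furthest from 0 (log2 fold change -1.23, edgeR adjusted p = 0.236). Without TNBS replicate 1 Foxa2 was at -2.25 (adjusted p = 0.0083), and 1 of the 20 was called higher and 3 lower.

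Among 15 intermediate filament genes other than keratins, 1 fell and none rose by edgeR, against 1.14% and 0.906% of all genes. By DESeq2 2 were lower and 0 higher (5.11% and 5.01% of genes), and by limma-voom 1 and 0 (1.03% and 0.566%). Unadjusted p values under 0.05 went to 2 genes in each direction, against 21.0% of all genes. The gene that fell by edgeR was Synm, a filament protein of muscle, at 416, 472 and 704 CPM in the normal and 205, 68.7 and 155 CPM in the TNBS libraries (log2 fold change -1.89, edgeR adjusted p = 0.0464). The call was lost without any 1 of normal replicates 1 to 3 (adjusted p = 0.0834, 0.153 and 0.155), without TNBS replicate 2 (0.0714) or 3 (0.120), and with scaling to library size alone (0.0599). Smooth muscle markers summed to 7900 to 10949 CPM over normal and 4521 to 7354 CPM over TNBS libraries. None of the 10 passed with edgeR or limma-voom. By DESeq2 3 were lower, against 5.11% of genes. By the unadjusted p under 0.05 3 were lower, against 21.0% of all genes in either direction. Cnn1, a calponin of smooth muscle, was furthest from 0 (log2 fold change -1.14, edgeR adjusted p = 0.125).

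Markers of other tissues that make simple keratins gave these values beside Krt7. Of 6 urothelial genes 4 were in the table, summing to 4.19 to 11.4 CPM over normal and 6.01 to 8.22 CPM over TNBS libraries. Neither of the 2 tested reached even an unadjusted p under 0.05 with edgeR or was called by DESeq2 or limma-voom; Upk1a, a uroplakin, was the one furthest from 0 (log2 fold change -0.38, adjusted p = 0.738). Of 9 mesothelial genes 8 were in the table, summing to 22.9 to 37.9 CPM over normal and 3.30 to 14.0 CPM over TNBS libraries. Most of the normal sum came from Cpn1, a carboxypeptidase subunit that edgeR called lower (log2 fold change -3.19, adjusted p = 0.0360), though not without any 1 library other than TNBS replicate 1 (0.0516 to 0.168) and not with limma-voom (0.0603). Wt1, a transcription factor of mesothelium, had 0, 7 and 14 counts in normal and 8, 16 and 31 in TNBS colon. Msln, the defining marker of mesothelium, had 17, 10 and 0 counts in normal and 14, 0 and 6 in TNBS colon. Upk3b, another such marker, had 27 counts in normal replicate 2 and 0 in each of the other 5 libraries. The summed urothelial markers of the TNBS libraries lay within the normal range and the summed mesothelial markers below it. Without Cpn1 the mesothelial sums overlapped, at 9.77 to 11.2 CPM in normal and 2.78 to 10.9 CPM in TNBS replicates. Over all libraries most counts of that sum came from Gpm6a and Upk1b. Gpm6a had 152, 94 and 150 counts in normal and 86, 9 and 85 in TNBS colon. Upk1b, which is also in the urothelial list, had 45, 79 and 42 against 94, 18 and 52. The part of these tissues in the Krt7 result was not tested. The 8 leukocyte markers summed to 199 to 457 CPM over normal and 141 to 319 CPM over TNBS libraries. None was called by edgeR or limma-voom. By DESeq2 1 was higher, against 5.01% of genes. By the unadjusted p under 0.05 1 was higher, against 21.0% of all genes in either direction. Tyrobp, a signalling adaptor of myeloid and natural killer cells, was furthest from 0 (log2 fold change 1.25, edgeR adjusted p = 0.103).

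Genes whose profile over the 6 libraries was most like that of a keratin were found by the root mean square difference of log2 CPM centred on its mean, among genes with a mean of at least 100 counts. For Krt20 these were Ccng2 (0.155), Cyp4f14 (0.163) and Mep1b (0.168 log2 units). Mep1b encodes a brush border protease and Cyp4f14 a fatty acid hydroxylase, and both were called lower by edgeR (adjusted p = 0.0328 and 0.0360). Ccng2 was not called (edgeR adjusted p = 0.0604). All 3 were picked because their values follow those of Krt20 over these libraries, so lower TNBS values came with the choice. Their calls therefore add nothing to the Krt20 result. For Krt8 they were Ttc4 (0.0578), Prdm1 (0.0617) and Kbtbd4 (0.0689). For Krt14, with at most 24 counts in a library, they were Creld1, Spsb2 and Zscan20, at 0.261 to 0.286 log2 units, each with its lowest value in normal replicate 3.

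**Figure D4:**
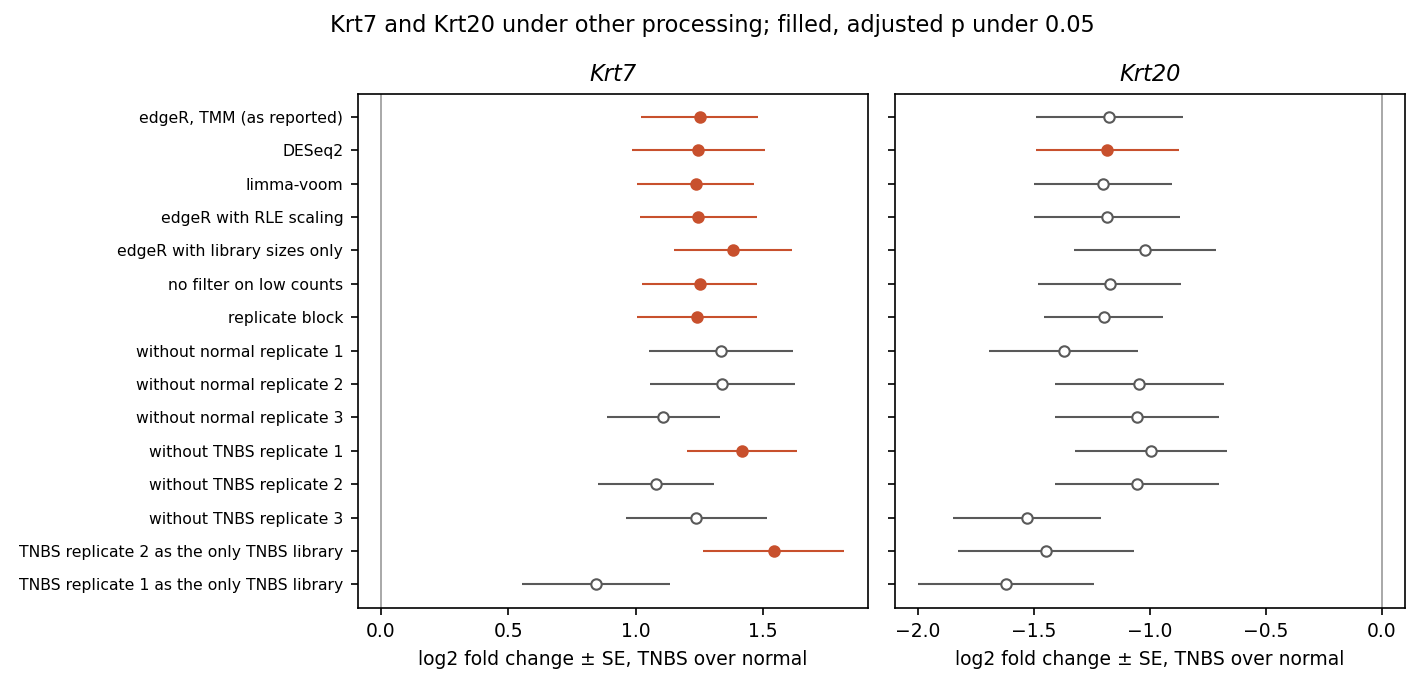
Log2 fold change ± SE of Krt7 and Krt20 under each way of processing, with filled red points where the adjusted p was under 0.05. Krt7 stays between 0.84 and 1.54 and loses the call in 6 of the 14 alternatives; Krt20 stays between -1.62 and -0.99 and gains it with DESeq2.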

How the data were processed

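The authors deposited raw read counts per gene, per the file headers. CASAVA 1.8, HISAT2 and mm10 are named in the submitters' processing notes; counting tool, annotation, filters and strand setting: not given in the sources used here. A second set of 6 columns with normalized values was not used. Genes with low counts were removed with filterByExpr (minimum count 10, total 15), which left 14126. The main test was edgeR 4.0.16 (quasi-likelihood, TMM, group as the only term, R 4.3.3) with Benjamini-Hochberg adjustment over all tested genes and a threshold of 0.05. DESeq2 1.42.0 and limma 3.58.1 were alternatives. The steps were tested on simulated data with 200 changed genes. The standard error of an edgeR log2 fold change was taken as its size over root F. Positions, lengths and shared sequence come from GENCODE vM21 (GRCm38), promoters from RefSeq; 8 of the 10 keratins had a promoter entry. The keratins and all gene lists were chosen with earlier results of these data known. The text names the 10 keratins, the 3 most abundant other keratins, the called members of each list (up to 3) or else the member furthest from 0, and 3 genes of like profile for Krt8, Krt20 and Krt14.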

Additional observations from a re-analysis of the deposited data

How the results depend on the processing

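Of the alternative values of the 8 tested keratins, 94 kept their direction and their side of the threshold, 6 fell short of it (all Krt7), 1 passed it (Krt20, DESeq2) and 11 changed sign. The 94 include Krt14 and Krt15 with DESeq2, which kept their direction but were given no adjusted p. Signs changed for values near 0 or with few counts. Krt18 was at 0.041 with library sizes only and 0.21 with TNBS replicate 2 alone for its group, and ran from -0.29 to 0.037 when single libraries were left out. With TNBS replicate 1 alone for its group, Krt19 was at -0.14, Krt23 at -0.56, Krt14 at 0.089 and Krt10 at -0.28. Krt14 was at 0.75 with limma-voom and ran from -0.94 to 0.071 over single libraries left out. Krt10 ran from -0.035 to 0.998, Krt222 from -0.87 to 0.23 and Upk1a from -0.79 to 0.079. Numbers of genes called higher and lower were 128 and 161 as reported, 666 and 679 with DESeq2, 80 and 146 with limma-voom, 209 and 210 with no filter, 338 and 480 with TNBS replicate 2 alone, 30 and 33 with TNBS replicate 1 alone, and 7 to 532 and 11 to 576 with single libraries left out. With library sizes only they were 196 and 102, which puts 65.8% of the calls higher instead of 44.3%, and the median log2 fold change of all genes moved from 0.0073 to 0.15. The cause of these differences was not tested. Keratins called higher numbered 0 with TNBS replicate 1 alone and 0 to 1 with single libraries left out; keratins called lower numbered 1 with DESeq2. The mean squamous share per kb ran from 0.0121% to 0.0220% in normal and 0.0197% to 0.0422% in TNBS colon over single libraries left out. The simple keratin sum over the epithelial list (log2, TNBS minus normal) was 0.085 and ran from -0.021 to 0.27. The length of all exons, which like the shorter Krt7 transcript and the mesothelial sum without Cpn1 was chosen after seeing the data, gave squamous shares of 0.0174% and 0.0345%. Replicate numbers did not pair the samples: deviations of same-numbered libraries correlated at 0.00547, 0.0149 and 0.0354, and not every library correlated best with its own number. The fit with the replicate block called 153 genes higher and 207 lower, kept Krt7 (adjusted p = 0.0371), left Krt20 at 0.0512 and put Krt14 at 0.25; of the position factors it called 3 higher and 1 lower. Depth limits the squamous keratins, which had at most 24 counts in a library.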

Other observations

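Vim, the intermediate filament gene of mesenchymal cells, was looked at after its values were seen, as a counterpart to the keratins. Normal replicates held 153, 174 and 190 CPM and TNBS replicates 256, 222 and 238 CPM, with no overlap, a log2 fold change of 0.47 (SE 0.17, edgeR adjusted p = 0.173). Epcam and Cdh1, the adhesion molecules of epithelial cells, were at 1682 ± 151 and 1422 ± 20.3 CPM in normal and at 1182 ± 222 and 1030 ± 155 CPM in TNBS colon (SD, n = 3; edgeR adjusted p = 0.229 and 0.230). Among the keratin-linked genes, Ppl, the plakin periplakin, was at 12.9, 14.4 and 9.94 CPM in the normal and 21.5, 26.6 and 30.6 CPM in the TNBS libraries (adjusted p = 0.0655), and Klf4, a transcription factor of epithelial differentiation, at 864 ± 40.3 and 500 ± 32.1 CPM (SD, n = 3; adjusted p = 0.0631). Each of these genes was picked with its values in view, and none passed edgeR's test.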
